A study of Mus musculus with 5 samples.

Results

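The proteasome, the protease complex that breaks down proteins tagged with ubiquitin, was followed at the RNA level in mouse liver through 46 genes of 12393 with a named probe set. Its members are the probe sets with a single annotated symbol that starts with Psma to Psmg and a number, leaving out Psmb8 and Psmb9. The 83 probe sets that meet this were reduced to 1 per gene by keeping the probe set whose log2 signals averaged highest over the 5 arrays. The members comprise 8 genes of the alpha ring, 8 of the beta ring, 9 of the base, 8 of the lid, 4 activators and inhibitors and 7 assembly chaperones. The pattern also takes 2 symbols that belong to no subcomplex. Psmc3ip encodes a partner protein that acts in meiotic recombination, and Psme3ip1 a partner of the activator gene product of Psme3. Both were counted but placed in a class of their own. The activator gene Psme2 shares its probe set with Psme2b and was not named.

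C57B/L mice aged 8 weeks had 2 weeks of acclimation and were then fed standard chow or an atherogenic diet, a feed used to raise blood cholesterol. The groups were chow for 1 week, the diet for 1 week, chow for 10 weeks, the diet for 10 weeks, and the diet for 10 weeks with atorvastatin for the last 3. Atorvastatin is a statin, which inhibits the rate-limiting enzyme of cholesterol synthesis. Livers of a group were pooled and hybridised to 1 array, so each group is a single pool with no replicate. No test or p-value was made and every value describes these pools. The 1-week diet sample carries the word chow in its source name, while its title and protocols give the atherogenic diet, by which it was grouped.

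The proteasome consists of a barrel-shaped core particle capped by a regulatory particle. The alpha ring gates the barrel and the beta ring carries the proteolytic sites. The base of the cap holds ATPases that unfold substrates, and the lid holds the enzyme that removes ubiquitin. Other activators can replace the cap, and dedicated chaperones assemble the rings and the base. In many cells the subunit genes are transcribed together under the factor encoded by Nfe2l1, and interferon replaces catalytic subunits with immune forms, among them the product of Psmb10.

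Values are MAS5 signals on a linear scale, raised to 138.9 where they lay below it (the floor, set at the 40th percentile) before log2 ratios were taken. Hepatocyte markers were bright on every array, and 7 of 9 lymphocyte markers had a named probe set, with Cd3d below the floor on all 5. The arrays stood apart in their controls. Over 9 spike-in probe sets the signals averaged, as a geometric mean, 6193 on the 10-week chow array and 1075 to 2016 on the others, and the 18S ribosomal RNA control was 13944 on the atorvastatin array and 437 to 2185 elsewhere. In a liver pool, fewer cells of a type and less RNA per cell cannot be told apart.

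In their chosen probe sets, proteasome genes differed little between the groups. Of the 46 members, 43 had signals above the floor on all 5 arrays, Psmd10 on some, and Psma8, a testis-type alpha subunit, and Psmc3ip on none. Between the highest and the lowest array the 43 members differed by a median of 1.57-fold, against 1.64-fold for the 6915 genes above the floor on every array. Only 3 of the 43, Psmc4, Psmd13 and Psmg2, spanned at least 2-fold, which is 6.98% against 22.2% of those genes. These spans do not cover the other probe sets of members. Of those measured, 3 of 27 were past 2-fold for the diet at 10 weeks (all genes 6.7%) and 1 of 27 at 1 week. Between the 10-week and 1-week diet arrays 6 of 26 were (all genes 8.54%), and between the chow arrays 1 of 27. With atorvastatin 1 of 24 was against the diet and 2 of 27 against 10-week chow. The all-gene shares are of chosen probe sets, and none was computed over the probe sets not chosen. Among genes with a mean signal of at least 500, the shares that spanned at least 2-fold were 2 of 39 members (5.13%) and 19.3% of 3775 genes. The smallest spans were those of Psme3ip1 (1.21-fold), the assembly chaperone gene Psmg1 (1.25-fold) and the beta ring gene Psmb1 (1.27-fold). Psmg1 had signals of 1024 on chow and 939 on the diet at 1 week, 1044 and 1170 at 10 weeks, and 968 with atorvastatin. These 5 values lie close together, with the highest on the 10-week diet array.

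**Figure D1:**
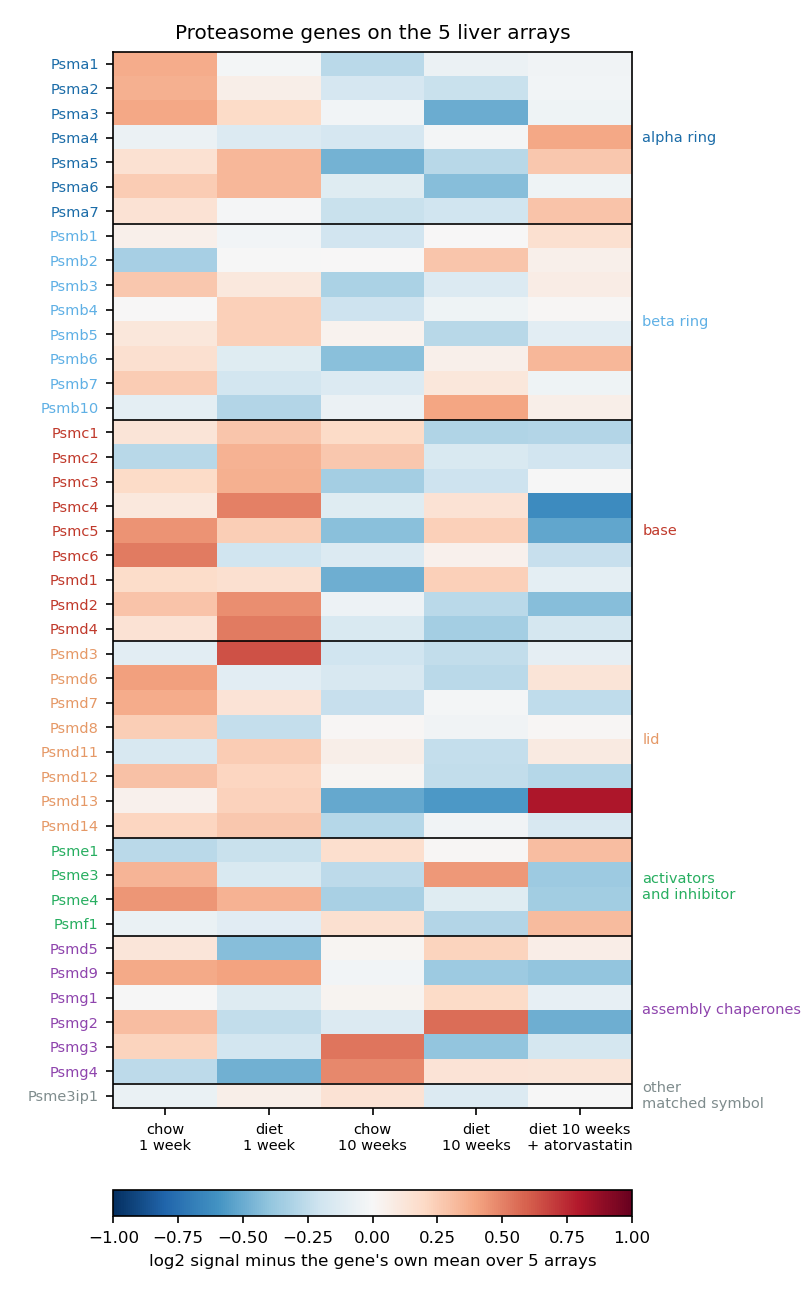
Deviation of each gene's log2 signal from its own mean over the 5 arrays, for the 43 members above the floor on all of them, with 1 column per array and rows grouped by subcomplex. The 2 left columns, the 1-week arrays, hold most of the positive values; the deepest red cell is Psmd13 on the atorvastatin array.

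After 10 weeks on the diet no member was at least 2-fold from chow, 0 of 44 measured, where 6.7% of all 9250 measured genes were. The member median log2 ratio was 0.14 and that of all genes 0.05. With 1.5-fold as the limit, 6 of 44 members (13.6%) were past it, against 24.8% of all genes. The sign of the member median depends on the chow array and the probe set: with 1-week chow as the reference it was -0.24, and averaging the probe sets of each gene gave -0.051. At 1 week the count was again 0 of 44, against 2.31% of 8801 genes, with medians of -0.08 and -0.03. The 1.5-fold limit was passed by 3 of 44 members and by 14.2% of all genes. The diet ratios at the 2 times share no array. Of the 44 members 6 were positive at both times, 8 negative at both, 18 positive at 10 weeks alone and 12 at 1 week alone. Of 8420 genes measured in both, 23.2% were positive at both times and 23.1% negative at both, where the member shares were 13.6% and 18.2%.

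With atorvastatin 2 of 44 members passed 2-fold against the diet alone, the lid gene Psmd13 (higher) and the assembly gene Psmg2 (lower). Of all 9314 genes 4.33% did, 2.16% higher and 2.17% lower. The member median was 0.04 and the median of all genes -0.02. Against 10-week chow, 1 of 43 members, again Psmd13, was past 2-fold, where 5.56% of 9261 genes were, 3.08% higher and 2.48% lower. The member median there was 0.04, and -0.26 with 1-week chow as the reference. Past 1.5-fold were 7 of 44 members against the diet (all genes 19.3%) and 4 of 43 against chow (all genes 22.1%). Both comparisons use the atorvastatin array, so their values are not independent.

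**Figure D2:**
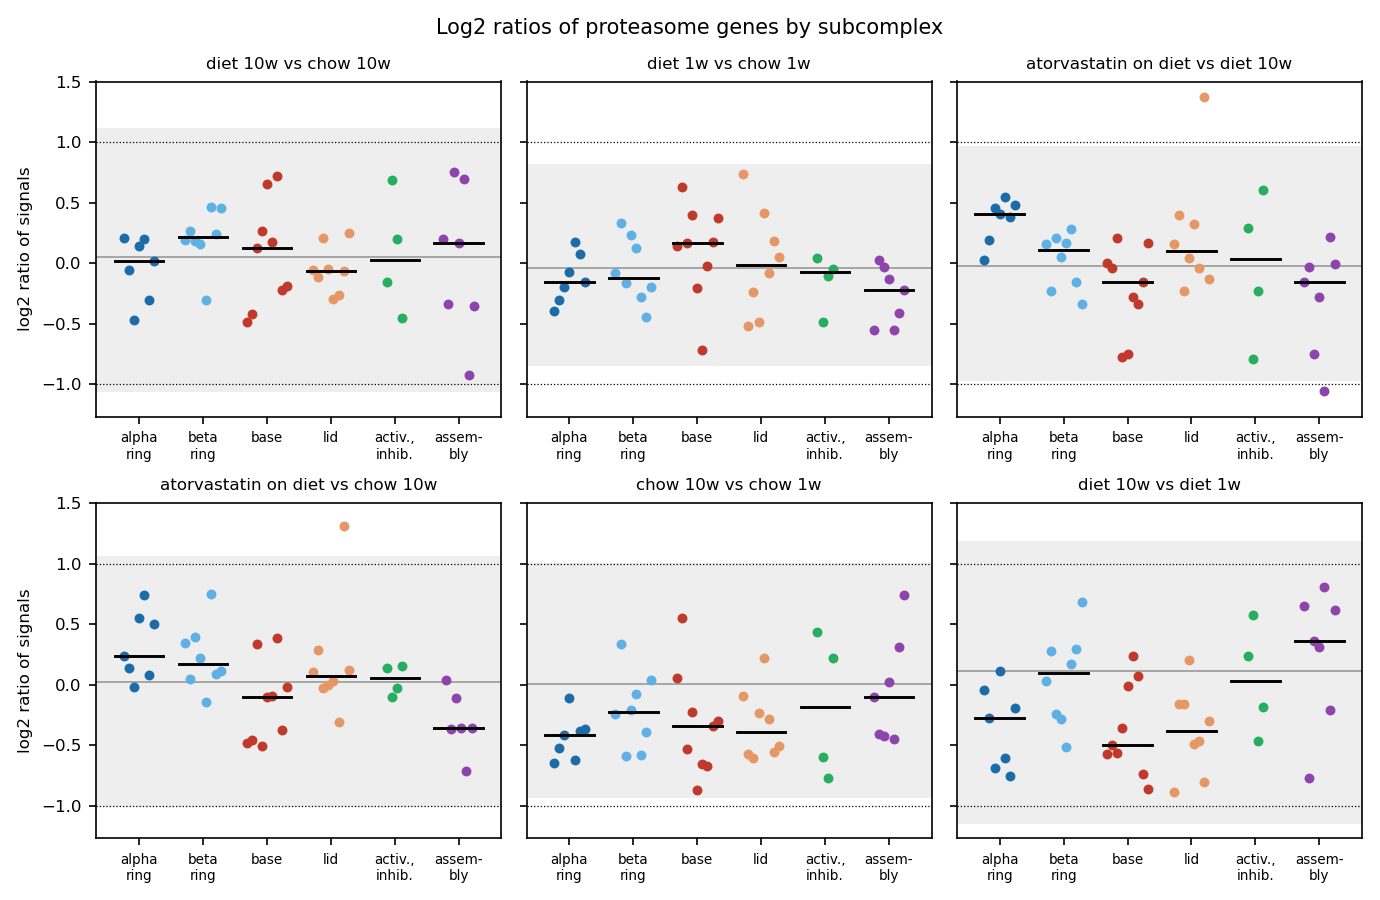
Log2 ratio of each measured member, 1 panel per comparison and 1 column of points per subcomplex, with a black bar at the subcomplex median. The grey band holds the central 95% of all measured genes, the grey line is their median and dotted lines mark 2-fold. Psmd13 lies above the upper dotted line in both atorvastatin panels and Psmg2 below the lower one in the comparison with the diet.

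The clearest shared direction lay between the times on feed. On chow, 33 of 44 members were lower at 10 weeks than at 1 week, where 48.9% of all genes were, with a member median of -0.35 and an all-gene median of 0.01. None was past 2-fold, where 4.43% of genes were, and 10 passed 1.5-fold, 22.7% against 19.7%. Of those 9 were lower and 1 higher, where 8.91% and 10.8% of genes were. With the probe sets of each gene averaged, 31 of 44 were lower, with a median of -0.20. The 2 diet arrays, a comparison added after the values were seen and sharing no array with the chow pair, had 28 of 44 members lower at 10 weeks. Of all genes 41.3% were lower in that pair. The member median was -0.19, against 0.11 for all genes. There too 0 of 44 members passed 2-fold, against 8.54% of genes, and 12 passed 1.5-fold, 27.3% against 30.3%. Those counts use the chosen probe sets: of 26 other measured probe sets of members 6 were past 2-fold in this pair, all lower, from -1.12 for Psmd11 to -2.44 for Psmc4, the latter against the floor. Lower at 10 weeks on both feeds were 22 of 44 members, or 50%, against 23.6% of all genes, and 5 were higher on both. Of the 43 members above the floor throughout, 26 had their highest signal on a 1-week array (60.5%, all genes 34.3%) and 34 their lowest on a 10-week array (79.1%, all genes 57.8%). Among genes with a mean signal of at least 500, the shares highest on a 1-week array were 66.7% of members and 40.3% of genes. The shares lowest on a 10-week array were 76.9% and 62.5%.

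Age at sampling, time on feed and the array differ together in both pairs and cannot be told apart. Other signals moved with the time as well. All 8 hepatocyte markers were higher at 10 weeks on both feeds, with a median of 0.68 on chow and 0.65 on the diet. Their summed signal was 231297 on chow and 197410 on the diet at 1 week, 389816 and 306089 at 10 weeks and 276833 with atorvastatin. The 10 Kupffer cell and macrophage markers were all lower at 10 weeks on chow (median -0.67), but 9 of 10 were higher on the diet (0.29). Their summed signals, in the same order of arrays, were 14894, 13224, 9651, 16668 and 23961. The 6 endothelial markers were all lower at 10 weeks on chow (-0.37), and 4 of 6 were higher on the diet (0.29). The part of these lists, and of the spike-in difference, in the proteasome values was not tested.

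**Figure D3:**
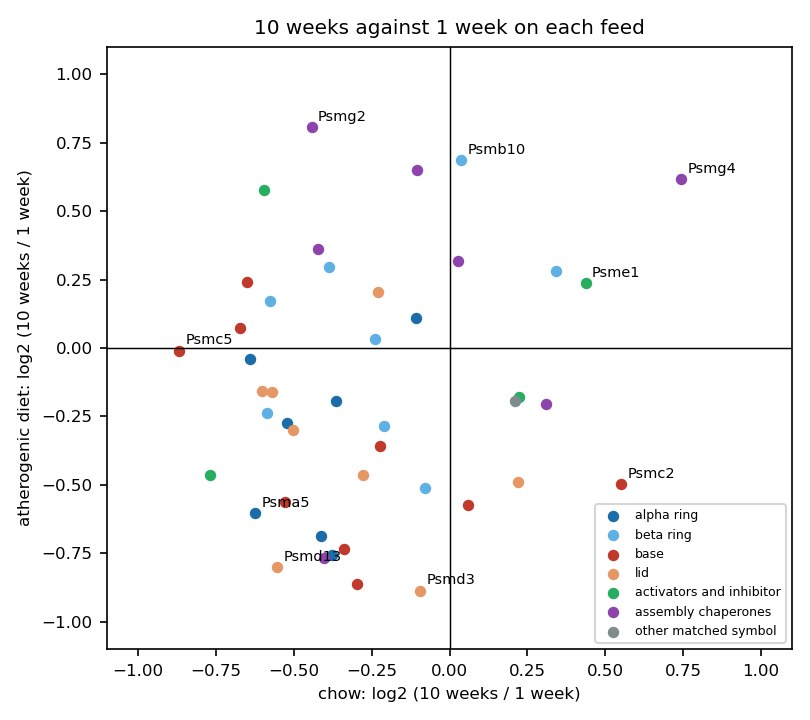
Log2 ratio of 10 weeks over 1 week on chow (horizontal) and on the atherogenic diet (vertical) for the 44 members above the floor on at least 1 array, coloured by subcomplex. The lower left quadrant, lower at 10 weeks on both feeds, holds 22 members, and the upper right 5, among them Psmg4, Psme1 and Psmb10.

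The 7 measured alpha ring genes, whose products form the gate of the barrel, were lowest in the 10-week groups without the statin. All 7 lay below their own mean on the 10-week chow array and on the 10-week diet array. The share of all genes below their own mean on these arrays was not computed. On chow all 7 were lower at 10 weeks than at 1 week, with a median of -0.41, and on the diet 6 of 7, with -0.27. Psma1 had signals of 2257 and 1721 on chow and the diet at 1 week, 1446 and 1673 at 10 weeks, and 1704 with atorvastatin. Psma3 had 5216, 4554, 3917, 2832 and 3881 in that order, so that its lowest value was on the 10-week diet array. Psma2 was steadier, with 3181, 2583, 2215, 2135 and 2440. Psma6, the brightest of the ring, had 5891, 6213, 4534, 3678 and 4793, and both 1-week signals lie above the later ones. Its second probe set, with 2657, 3335, 3043, 2092 and 2981, gave 0.20 for the chow pair where the chosen one gave -0.38. Against 10-week chow the diet ratios ran from -0.47 for Psma3 to 0.21 for Psma1, 4 positive and 3 negative, around a median of 0.02.

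With atorvastatin all 7 alpha ring genes were higher than on the diet alone, by log2 0.03 for Psma1 to 0.55 for Psma5, with a median of 0.41 and none past 2-fold. Of all genes 47.5% were higher in this comparison, with a median of -0.02. Psma5 had signals of 2681 and 3034 at 1 week, 1741 and 1998 at 10 weeks, and 2916 with atorvastatin, which lies between both 1-week values. Psma4 had 3175, 3022, 2947, 3264 and 4327, with the atorvastatin array the highest of the 5. Psma7 was similar, at 2310 with atorvastatin against 1630 and 1650 on the other 10-week arrays. Second probe sets of Psma5, Psma6 and Psma7 gave 0.40, 0.51 and 0.23 for the same comparison, while another, dim one of Psma6 gave -0.34. In that comparison 9 of 10 macrophage markers were higher as well (median 0.43) and the 18S control was at its highest, and their part in the alpha ring values was not tested. Against 10-week chow the median was 0.24, with 6 of 7 positive (all genes 52.2%). Against the 1-week chow array it was -0.30.

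The members' promoters were searched for short motifs on both strands in the RefSeq windows of GRCm38.p6, which run from 250 bases before the start site to 50 after it. Of the 46 members 38 had a window. Psma8, Psmb1, Psmb2, Psmb7, Psmc3, Psmd3, Psmd7 and Psmg2 had none and were not searched. The CCAAT box, spelled CCAAT and bound by the factor NF-Y, was present in 5 of 8 alpha ring windows (62.5%), in 34.1% of 41 member windows and in 37.4% of all 32851 windows. The 8 alpha ring windows belong to 7 genes, and the ring was picked out of several classes and motifs searched. In their chosen probe sets these 7 genes shared a direction for the chow pair and for atorvastatin against the diet. They did not share one for the diet against chow at either time. The part of the box in these directions was not tested. For each of the 5 the match nearest to the start site among those wholly before it is shown, with the box in capitals.
Psma1: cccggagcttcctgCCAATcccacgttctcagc
Psma2: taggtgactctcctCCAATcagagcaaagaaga
Psma3: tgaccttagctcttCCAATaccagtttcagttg
Psma6: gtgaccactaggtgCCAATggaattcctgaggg
Psma7: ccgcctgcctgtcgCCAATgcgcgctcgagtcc
They lie at chr7:114276196-114276228 on the minus strand (Psma1), chr13:14613174-14613206 plus (Psma2), chr12:70974470-70974502 plus (Psma3), chr12:55384179-55384211 plus (Psma6) and chr2:180042642-180042674 minus (Psma7). The box begins 98, 54, 139, 29 and 196 bases before the start site in that order. Psma3 also has 2 matches after its start site. Psma4 and Psma5, whose atorvastatin ratios were 0.41 and 0.55, have no CCAAT in their windows.

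The beta ring genes were mostly a little higher on the diet than on chow at 10 weeks, 7 of 8 with a median of 0.22. Of all genes 54.3% were higher, with a median of 0.05. Other probe sets of Psmb1 (-0.54 and -0.47) and Psmb4 (-0.57) had the opposite sign to the chosen ones in this comparison. The exception among the chosen was Psmb5, which encodes the chymotrypsin-like site, at -0.31. Its signals were 3505 and 3827 on chow and the diet at 1 week (0.13), 3319 and 2684 at 10 weeks, and 3017 with atorvastatin. Psmb6, of the caspase-like site, had 2767, 2280, 1856, 2565 and 3129, a diet ratio of 0.47 at 10 weeks and -0.28 at 1 week. Psmb7, of the trypsin-like site, had 9581, 7060, 7327, 8675 and 7783, with diet ratios of 0.24 and -0.44. The 3 catalytic genes therefore did not share a direction at either time. On chow 6 of 8 beta ring genes were lower at 10 weeks than at 1 week (median -0.23), with Psmb3 at -0.59 and Psmb2 the highest at 0.34. Psmb2 had 1711 and 2152 at 1 week, 2168 and 2616 at 10 weeks and 2239 with atorvastatin, so that it was higher on the diet at both times. Psmb4 likewise had 3694 and 4357, then 3191 and 3576, and 3719 with atorvastatin. Both are structural subunits without a proteolytic site. Psmb1, the steadiest of the ring, had 3176, 3002, 2690, 3073 and 3429, but its 2 dimmer probe sets gave 1.62 and 0.74 for the chow pair where the chosen one gave -0.24. Against the 1-week chow array the beta ring median for the 10-week diet was -0.08.

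Psmb10 encodes the interferon-inducible subunit that takes the place of the Psmb7 product. Its signals were 474 on chow and 415 on the diet at 1 week, 486 and 667 at 10 weeks, and 528 with atorvastatin. The 10-week diet array was the highest of the 5, with a log2 ratio of 0.46 over chow at 10 weeks, 0.69 over the diet at 1 week, and -0.34 for atorvastatin over the diet. The other immune subunit genes, which are not among the members, were Psmb9 and Psmb8. Psmb9 had 341, 342, 340, 651 and 315 in that order of arrays, a diet ratio of 0.94 at 10 weeks and -1.05 with atorvastatin, and Psmb8 had 0.19 and -0.28. Of the 5 antigen processing genes, the peptidase gene Erap1 (0.66 for the diet at 10 weeks and -0.57 with atorvastatin) and the loading factor gene Tapbp (0.34 and -0.15) had these signs as well. The transporter genes Tap1 and Tap2 had -0.70 and -0.56 for the diet, and B2m, the light chain of the presenting molecule, had -0.05. On the 10-week diet array all 9 measured macrophage markers were higher than on chow (median 0.77), as were all 5 measured neutrophil markers (0.45) and 5 of 6 lymphocyte markers (0.35), and all 8 hepatocyte markers were lower (-0.42). The summed signals ran from 911 to 1630 for neutrophil markers, with Camp below the floor on all 5 arrays, and from 1153 to 1397 for lymphocyte markers, both highest on the 10-week diet array. The part of these cells in the Psmb10 and Psmb9 values was not tested.

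The antioxidant response element core, spelled TGACNNNGC and bound by the products of Nfe2l1 and Nfe2l2, was found in 6 of 41 member windows (14.6%), against 12.4% of all windows. It is shown in capitals for the 2 catalytic genes found to hold it and for the base chaperone gene Psmd9. Psmd9 is the other member with a match close to and wholly before the start site. The catalytic gene Psmb7 had no window and was not searched.
Psmb5: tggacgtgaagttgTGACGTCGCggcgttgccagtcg
Psmb6: cggactaaagagagTGACGGAGC
Psmd9: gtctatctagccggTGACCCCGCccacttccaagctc
These stretches lie at chr14:54618020-54618056 minus, chr11:70525334-70525356 plus and chr5:123228145-123228181 plus, and the motif begins 47, 9 and 31 bases before the start site. The 10-week diet ratios were -0.31, 0.47 and -0.33 for these 3 genes, and 0.18, -0.26 and 0.21 for the other members with a match, Psmc6, Psmd12 and Psme4. The interferon-stimulated response element was taken as GAAA, any pair of bases and GAAA again. It was found in 5 of 41 member windows (12.2%, all windows 3.44%), those of Psmb3, Psmd4, Psmd9, Psme1 and Psmg4. Their 10-week diet ratios were 0.18, -0.19, -0.33, -0.16 and -0.35 in that order. The window of Psmb10 was searched and held no match.

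The base, which holds the unfolding ATPases Psmc1 to Psmc6 and the scaffold and ubiquitin-binding genes Psmd1, Psmd2 and Psmd4, was highest at 1 week. On each 1-week array 8 of 9 base genes lay above their own mean, and on the atorvastatin array 0 of 9. The matching shares of all genes were not computed. The base median was -0.34 for 10 weeks against 1 week on chow and -0.50 on the diet, with 7 of 9 genes lower in each. For atorvastatin against the diet the median was -0.15, with 6 of 9 negative, where the alpha ring median was 0.41. The ATPase gene Psmc4 had signals of 1217 and 1606 on chow and the diet at 1 week, 1041 and 1254 at 10 weeks, and 734 with atorvastatin, the lowest of the 5 and a ratio of -0.77 to the diet. The second probe set of Psmc4 gave 0.07 there, with its diet signal below the floor. Psmc5, another ATPase gene, had 1706, 1478, 934, 1469 and 871, low on the 10-week chow and atorvastatin arrays and close together on the others. The log2 ratios of Psmc5 were 0.65 for the diet at 10 weeks, -0.75 with atorvastatin and -0.87 for the chow pair, the lowest member value there.

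Psmd1, the largest scaffold subunit of the base, had 2026 and 1997 at 1 week, 1271 on chow and 2101 on the diet at 10 weeks, and 1666 with atorvastatin. Its diet ratio at 10 weeks was 0.73 to 10-week chow, and the ratio of the same diet array to 1-week chow was 0.05. The cause of this difference was not tested. Psmc6 had 2766 on chow and 1688 on the diet at 1 week, 1762 and 1996 at 10 weeks, and 1649 with atorvastatin. Here the 1-week chow array stood above the other 4. The second probe set of Psmc6 had 1150 on the diet against 881 on chow at 1 week, a ratio of 0.38 where the chosen one gave -0.71. Psmc2 moved the other way at 1 week, with 2068 on chow and 3199 on the diet (0.63), then 3030 and 2267 at 10 weeks (-0.42), and 2204 with atorvastatin. The second probe set of Psmc2 gave 0.23 and 0.15. Of the remaining base genes, Psmc1 had 1423 and 1575 at 1 week, 1482 and 1058 at 10 weeks and 1062 with atorvastatin, Psmc3 had 1535, 1722, 1065, 1165 and 1345, and Psmd2 had 2860, 3233, 2260, 1945 and 1750. All 3 were lower on the 10-week than on the 1-week diet array, by log2 ratios of -0.57, -0.56 and -0.73. The ubiquitin receptor gene Psmd4 had 2833, 3685, 2307, 2027 and 2277, and was lower on the 10-week than on the 1-week diet array by a log2 ratio of -0.86.

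**Figure D4:**
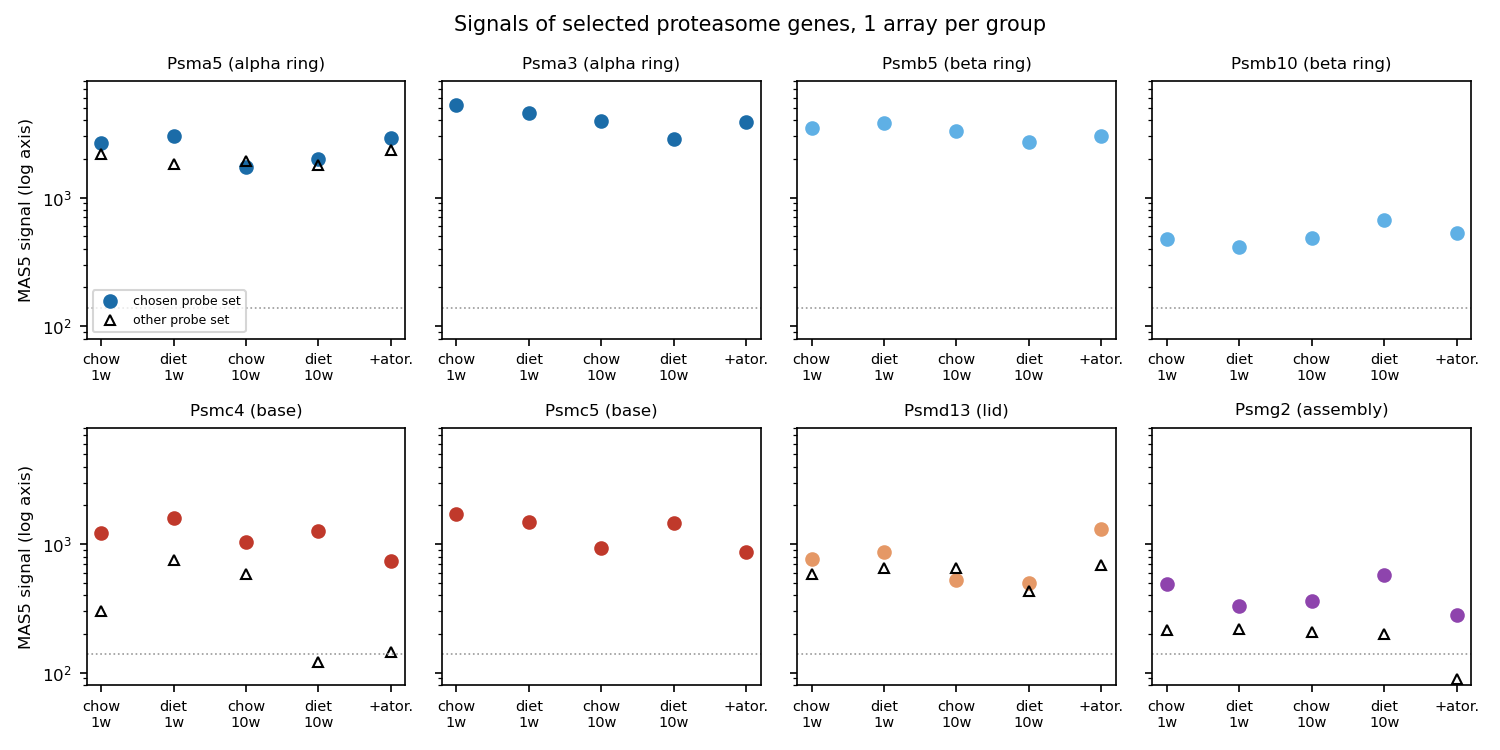
MAS5 signals (log axis) of 8 members on the 5 arrays, with filled circles for the chosen probe set, open triangles for other probe sets of the gene that reach the floor, and a dotted line at the floor. Psmd13 is highest on the atorvastatin array in its chosen probe set, at 1304, and the second probe set of Psmc4 falls below the floor on the 10-week diet array, at 122.

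The lid, which carries the deubiquitinating subunit, had all 8 genes below their own mean on the 10-week diet array. The matching share of all genes was not computed. The lid median was -0.39 for the chow pair and -0.38 for the diet pair, with 7 of 8 genes lower at 10 weeks in each. Against 10-week chow the diet median was -0.06, with 6 of 8 negative (all genes 45.7%) and the lowest at -0.29. All other measured probe sets of lid genes were negative in this comparison. They gave -0.95 for Psmd6, -0.38 for Psmd7, -0.60 for Psmd13 and from -0.21 to -1.56 for Psmd11. Psmd14, the deubiquitinating enzyme itself, had 1776 and 1841 at 1 week, 1254 on chow and 1495 on the diet at 10 weeks, and 1366 with atorvastatin. Both 1-week signals lie above the 3 later ones. Psmd3, a structural lid subunit, had 1018 on chow and 1697 on the diet at 1 week (0.74), and 953, 918 and 1026 on the later arrays, so the 1-week diet array stood alone. Psmd12 had 2276, 2154, 1875, 1563 and 1519, and Psmd7 702, 596, 463, 535 and 456, with both 1-week signals the highest in each. Psmd6 and Psmd8 had their highest signals, 3003 and 2707, on 1-week chow and were lower on the 1-week diet (-0.52 and -0.48), while the second probe set of Psmd6 gave 0.35. Psmd11 alone in the lid was higher on 10-week than on 1-week chow, at 5158 against 4430.

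Psmd13, a structural subunit of the lid, had the largest ratio of any member. Its signals were 770 on chow and 874 on the diet at 1 week, 524 and 502 at 10 weeks, and 1304 with atorvastatin. The atorvastatin signal was 2.60-fold that of the diet alone (log2 1.38), 2.49-fold that of 10-week chow (1.31), and above both 1-week arrays. The second probe set of Psmd13 had 583, 655, 653, 432 and 682, again highest with atorvastatin, with ratios of 0.66 to the diet and 0.06 to chow. With the mean of both probe sets the ratio was 1.02 to the diet and 0.69 to chow, and against 1-week chow it was 0.76 with the chosen one. The other 7 lid genes had atorvastatin ratios to the diet between -0.23 (Psmd7) and 0.40 (Psmd6).

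The activators and the inhibitor had medians between -0.19 and 0.06 in the 6 comparisons. Without x and s probe sets the median was 0.45 for atorvastatin against the diet, with 3 of 4 higher, and -0.30 for the diet at 10 weeks, with 3 of 4 lower. Psme1, a subunit of the interferon-inducible activator ring, was higher at 10 weeks than at 1 week, with 1751 and 1805 at 1 week, 2370 and 2128 at 10 weeks, and 2613 with atorvastatin. All 3 later arrays lie above both 1-week arrays, opposite to the alpha ring, base and lid medians. Psme3, the subunit of the nuclear activator, had 408 and 291 at 1 week, 270 and 435 at 10 weeks, and 251 with atorvastatin. Its ratio was 0.69 for the diet at 10 weeks, -0.49 at 1 week and -0.79 with atorvastatin, and its second probe set gave 0.10, 0.11 and -0.36. Psme4, a single-chain activator, had 2128 and 1984 at 1 week and 1249, 1440 and 1229 later, a ratio of -0.77 for the chow pair. Its 2 other probe sets gave -0.47 and -0.74 for the diet at 10 weeks, where the chosen one gave 0.21, and had 0.89 and 0.75 for atorvastatin against the diet where the chosen one had -0.23. Psmf1, which encodes a proteasome inhibitor, had 637, 617, 743, 545 and 830, and its second probe set ran the opposite way on the diet and with atorvastatin (0.52 and -0.36, against -0.45 and 0.61).

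Among the subcomplexes the assembly chaperones had the widest range of diet ratios at 10 weeks, from -0.92 for Psmg3 to 0.75 for Psmd10, a bound. Psmg3, a chaperone of the alpha ring, had 546 and 411 at 1 week, 677 on chow and 357 on the diet at 10 weeks, and 414 with atorvastatin. Its diet ratio of -0.92 was the lowest of any member at 10 weeks, and on all 3 diet arrays it lay below both chow arrays. Psmg2, another alpha ring chaperone, had 486 on chow and 331 on the diet at 1 week, 357 and 579 at 10 weeks, and 279 with atorvastatin. The ratio of Psmg2 was 0.70 for the diet at 10 weeks and -1.05 for atorvastatin against the diet, which is 2.07-fold lower. Its dimmer probe set had 201 on the diet and was below the floor with atorvastatin, a ratio of -0.53 against the floor, and -0.06 for the diet against chow. Psmg4, the partner of Psmg3, had 521 and 447 at 1 week, 873 and 685 at 10 weeks, and 683 with atorvastatin, higher at 10 weeks on both feeds (0.74 and 0.62). Among chaperones of the base, Psmd5 had 920 and 626 at 1 week (-0.55), 856 and 983 at 10 weeks, and 881 with atorvastatin. Psmd9 was 1193 and 1219 at 1 week and 902, 716 and 701 later, all 3 below both 1-week values, though its dimmer probe set gave 0.54 for the diet at 10 weeks against -0.33. Psmd10, which encodes gankyrin, was above the floor at 1 week (186 and 182) and on the 10-week diet (234), and below it on 10-week chow (116) and with atorvastatin (136), so the diet value at 10 weeks was at least 1.68-fold higher than chow.

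How far a value depends on the probe set could be read from the 21 members with several. For the diet at 10 weeks, 27 other probe sets of 19 genes were measured. Of these, 13 had the sign of the chosen probe set and 14 the opposite, and 18 differed from it by over 0.5 on the log2 scale. The widest gap was in Psmc4, whose second probe set had 304 and 754 at 1 week, 583 on chow at 10 weeks, 122 on the diet, which is below the floor, and 145 with atorvastatin. Against the floor that is a log2 ratio of -2.07 for the diet at 10 weeks, where the chosen one gave 0.27. For Psmd11, a lid gene with 6 probe sets, the chosen one gave -0.29 and the brightest of the others, 4927 on chow and 1674 on the diet, gave -1.56. For the chow pair 19 of 27 other probe sets had the sign of the chosen one, and for the diet pair 19 of 26.

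**Figure D5:**
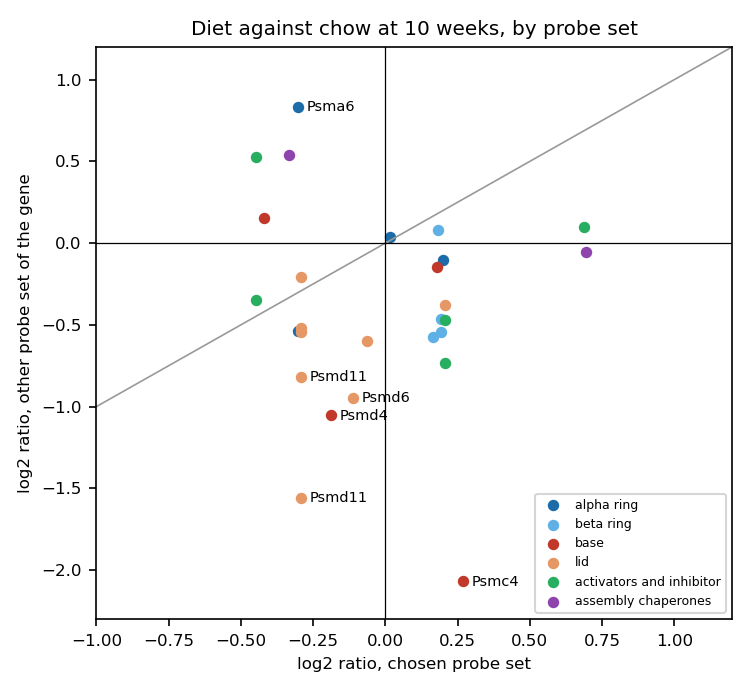
Log2 ratio of the 10-week diet to 10-week chow in the chosen probe set of a member (horizontal) against its other measured probe sets (vertical), with 27 points from 19 genes and a grey line where both are equal. Points in the upper left and lower right quadrants are the 14 with opposite signs. Psmc4 and Psmd11 lie farthest down, at -2.07 and -1.56.

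Other genes of the pathway came from 6 lists of 34 genes, of which 25 had a named probe set, in 5 of the lists; 0 of the 5 ubiquitin and activating enzyme genes were named. For the diet at 10 weeks 0 of 25 were past 2-fold higher and 2 lower, around a median of 0.08, where 6.7% of all genes were past 2-fold. Those were the shuttle factor gene Ubqln2 (914 on chow, 302 on the diet, -1.60) and Akirin2, whose product takes part in nuclear import of proteasomes (585 and 274, -1.1). At 1 week none of the 25 was past 2-fold in either direction, with the unfoldase gene Vcp the highest at 0.85 (3696 on chow, 6663 on the diet) and Nfe2l2 the lowest at -0.75. With atorvastatin 1 of 25 was past 2-fold against the diet (all genes 4.33%), Psmb9 (lower), and the median was -0.16 with 18 negative. For the chow pair 1 of 25 was past 2-fold (all genes 4.43%), Tap1 at 1.17. Nfe2l1, the transcription factor of the proteasome genes, had 895 on chow and 1233 on the diet at 1 week, 836 and 914 at 10 weeks, and 1058 with atorvastatin. Pomp, the maturation factor of the core particle, had 2526, 2866, 2298, 2691 and 2169, and the proteasome-bound deubiquitinase gene Usp14 had 1122, 968, 985, 1205 and 905.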

How the data were processed

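Biotin-labelled cRNA of pooled livers was hybridised to 5 arrays, 1 per group, per the labels' protocols. For each array the authors deposited a linear intensity per probe set, a MAS5 signal per the submitters' processing notes. The 2% trimmed mean was close to 500 on each array as tested on the table, and detection calls were not used here. Scaling all arrays to the same trimmed mean moved values by at most 0.00258%.

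Neither the comparisons nor the floor used the 64 control probe sets. Of 22690 probe sets, 20380 have 1 gene symbol and are no control. A comparison measured a gene if 1 or both of its arrays gave a signal above the floor. The 2-fold and 1.5-fold counts are descriptions. Members, lists and comparisons were chosen with earlier results of these data known. Named members were those past 2-fold, the 5 with the largest ratios in a comparison, the 3 with the smallest spread and a preset list. Other members, Psmb8, Pomp and Usp14 were added after their values were seen. Alternatives changed the scaling (none, quantile, cyclic loess), the floor (20th or 60th percentile, or a pseudocount of 50), the probe sets (all of a gene averaged, or without those of x and s type) and the chow reference. The functions were tested on simulated data. Computations used Python 3.11.15, pandas 2.3.3, R 4.3.3 and limma 3.58.1. The number of arrays limits the precision.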

Additional observations from a re-analysis of the deposited data

Results flagged for a closer look

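In 3 members the diet ratio had opposite signs at 10 weeks and 1 week and differed by at least 2-fold, a difference that was not tested. The log2 difference was 1.25 for Psmg2 (0.70 and -0.55), 1.17 for Psme3 (0.69 and -0.49) and -1.05 for Psmc2 (-0.42 and 0.63). These values are those of the chosen probe sets. The second probe sets gave -0.06 and 0.02 for Psmg2, 0.10 and 0.11 for Psme3 and 0.15 and 0.23 for Psmc2.

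Probe sets of members that were not chosen passed 2-fold in several comparisons. For the diet at 10 weeks these were second probe sets of Psmc4 (-2.07), Psmd11 (-1.56) and Psmd4 (-1.05), whose chosen probe sets gave 0.27, -0.29 and -0.19. The Psmc4 one gave 1.31 for the diet at 1 week and -2.0 for atorvastatin against 10-week chow. Probe sets of Psmd11 gave 1.09 for atorvastatin against the diet and -1.27 against 10-week chow. One of Psmb1 gave 1.62 for the chow pair. The diet pair had the most, 6 of 26 and all lower: Psmc4 (-2.44), Psmd6 (-1.78), Psmd4 (-1.45), Psmb4 (-1.32), Psmc6 (-1.17) and Psmd11 (-1.12). The chosen probe sets gave -0.36, -0.16, -0.86, -0.29, 0.24 and -0.49.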

How the results depend on the processing

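No paired analysis was possible because each group is 1 array. A median over the members was taken as kept when it moved by less than 0.44, the distance from the middle of the chow pair ratios that spans their central 68%, divided by the square root of the number of members. By this measure 46 of 52 alternative medians and 296 of 312 subcomplex medians were kept. Some settings could hardly move a median: the rescaling changed values by at most 0.00258%, and most members lay above the floor on every array. The 6 member medians that moved all came from another chow reference or from averaging probe sets. The median for the 10-week diet was 0.14, but -0.24 with the 1-week chow array as reference, -0.11 with both chow arrays averaged and -0.051 with a gene's probe sets averaged. For atorvastatin against chow it was 0.04, but -0.26 and -0.10 with those chow references. For the chow pair it was -0.35, and -0.20 with probe sets averaged. In the other settings it lay between -0.35 and -0.30. The cause of these moves was not tested.

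Counts past 2-fold changed in some settings. For atorvastatin against the diet the count of 2 became 1 with probe sets averaged and with the pseudocount, in both cases Psmd13. For atorvastatin against 10-week chow the count of 1 became 0 with 1-week chow and 2 without x and s probe sets, and with probe sets averaged the 1 gene was Psmc4 (lower) in place of Psmd13. For the 10-week diet the count of 0 became 1 with the floor at the 20th percentile (Psmd10) and 1 without x and s probe sets (Psmd11). For the diet pair 0 became 1 with probe sets averaged (Psmc4) and without x and s probe sets (Psmd11). The 1.5-fold rule gave 6 for the 10-week diet, 3 at 1 week, 7 and 4 for atorvastatin against the diet and chow, 10 for the chow pair and 12 for the diet pair.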
